A study of Mus musculus with 16 samples.

Results

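NAD is the cosubstrate that sirtuins consume when they remove acetyl groups from lysines, and the sirtuin SIRT2 is absent from the knockout mice of this study. The 10 genes described here encode enzymes that make or use NAD. They are the rows of the deposited count table with the names *Nampt*, *Naprt*, *Nmnat1*, *Nmnat3*, *Nmrk1*, *Nadk*, *Qprt*, *Cd38*, *Bst1* and *Parp1*, and they make up 10 of its 55450 genes. Each name matched 1 row.

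Cells build NAD in several ways. The salvage pathway rebuilds it from nicotinamide through NAMPT, from nicotinic acid through NAPRT and from nicotinamide riboside through NMRK1, and the NMNAT enzymes complete the dinucleotide. The de novo pathway starts from tryptophan, runs through kynurenine and reaches the NAD precursor nicotinic acid mononucleotide at QPRT. NADK phosphorylates NAD to NADP. CD38 and BST1 cleave NAD at the cell surface, and PARP1, a nuclear sensor of DNA breaks, uses it to build chains of ADP-ribose.

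Total RNA of CD4 and CD8 tumor-infiltrating T lymphocytes (TILs) was sequenced in 16 libraries, 4 for each cell type and genotype. The TILs were taken from subcutaneous B16F10 tumors, grown from a mouse line of melanoma, in mice of 7 to 8 weeks. Wild-type (WT) hosts were C57BL/6J mice, and Sirt2KO hosts, called Sirt2-/- below, were B6.129-Sirt2tm1.1Fwa/J mice. No further treatment is stated for these samples. The allele is germline, so it is carried by every host cell, while the injected tumor cells were of the same line in all 4 groups. The labels do not say whether a CD4 and a CD8 library came from the same animal, so p-values measure the spread between libraries.

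The libraries held 28000949 to 62407851 counts on genes. Of these, 13 detected 17730 to 22138 genes, and 3 thin libraries detected fewer: WT CD4 replicate 1 (12587 genes), Sirt2-/- CD4 replicate 4 (8169 genes) and WT CD8 replicate 1 (14411 genes). *Cd4* measured 344 to 639 CPM (counts per 1000000 counts of the library) in CD4 libraries and 0 to 4.94 CPM in CD8 libraries, and *Cd8a* measured 950 to 1251 CPM in CD8 libraries and 0.0357 to 34.6 CPM in CD4 libraries. *Sirt2* counts were 553, 433, 469 and 0 for the Sirt2-/- CD4 libraries against 1681 to 2272 for the WT ones, and 322 to 448 counts in Sirt2-/- CD8 against 1196 to 1703 in WT CD8 TILs. The library without a *Sirt2* count detected the fewest genes, although it held the most counts (62407851). A count of 0 there allows up to 3 counts (0.0481 CPM) for counting error only. That bound does not cover transcripts missing from a library with few genes detected.

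Levels differed widely between the enzymes. Scaled by library total and by exon length (RPKM), and averaged over the 13 libraries with at least 15000 genes detected, *Nadk* (20.9 RPKM, range 18.1 to 23.4), *Parp1* (19.6, range 15.1 to 25.9) and *Nampt* (16.8, range 11.7 to 23.6) were the highest. Their ranges overlapped, so these 3 were not ordered beyond the spread of the libraries. *Cd38* followed at 5.25 RPKM (2.32 to 9.73). *Qprt* (2.42), *Nmrk1* (2.25), *Nmnat1* (1.84) and *Nmnat3* (1.67) lay close together with overlapping ranges from 0.846 to 4.30 RPKM. *Naprt* (0.487, range 0.113 to 1.49) and *Bst1* (0.132, range 0 to 0.553) were the lowest. Transcripts of the nicotinamide route were higher per length than those of the nicotinic acid route, with the lowest *Nampt* library above the highest *Naprt* library.

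**Figure D1:**
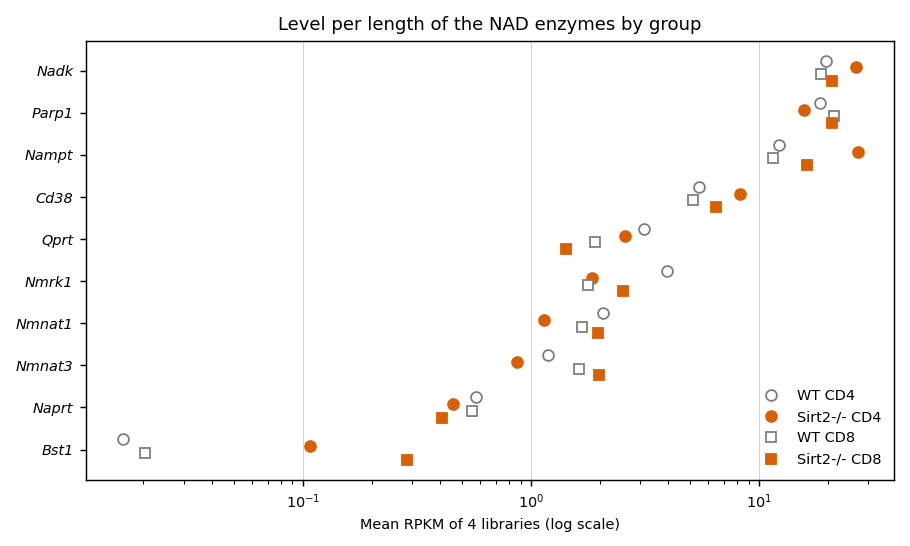
Mean RPKM of the 4 libraries of each group (log scale) for the 10 enzymes, with WT as open and Sirt2-/- as filled symbols, circles for CD4 and squares for CD8 TILs. *Nadk*, *Parp1* and *Nampt* are the 3 highest enzymes in all 4 groups and *Bst1* is the lowest.

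The genotypes were compared in CD4 and in CD8 TILs separately. Each comparison used the quasi-likelihood test of edgeR over all genes, and genes with an adjusted p (Benjamini–Hochberg) under 0.05 were called. None of the 9 enzymes tested was called in CD4 TILs, where 0% of 15070 genes were, and none of the 9 was called in CD8 TILs, where 0.00654% of 15302 genes were (1 gene, *Sirt2*). In CD4 TILs the deleted gene *Sirt2* was itself not called, at a log2 fold change of -2.60 (SE 1.26). A missing call for an enzyme in that fit therefore says little. At an unadjusted p under 0.05, 1 enzyme was higher in each cell type, in both cases *Nampt*, and the share of all genes tested at that level was not counted. DESeq2 called no enzyme in either comparison, beside 0.0479% of genes in CD4 and 0.185% in CD8 TILs. Over the enzymes tested, the median log2 fold change was -0.32 in CD4 TILs, beside -0.11 over all genes tested, with 3 higher and 6 lower, and 0.25 in CD8 TILs, beside 0.01 over all genes tested, with 6 higher and 3 lower.

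*Nampt* (ENSMUSG00000020572.8; chromosome 12 of GRCm38, 32819545 to 32853349, plus strand) encodes the rate-limiting enzyme of nicotinamide salvage. It measured 112, 119, 113 and 203 CPM in Sirt2-/- CD4 replicates 1 to 4 and 18.6, 93.5, 76.4 and 59.3 CPM in the WT CD4 replicates. Every Sirt2-/- library was above every WT library, and the highest and the lowest of the 8 were both thin libraries. The log2 fold change was 1.18 (SE 0.45, unadjusted p = 0.0256, adjusted p = 1.0 from edgeR). Without the thin libraries it was 0.55 (SE 0.14, unadjusted p = 0.00172, adjusted p = 0.492 from edgeR), with 115 ± 3.75 CPM (SD, n = 3) against 76.4 ± 17.1 CPM (SD, n = 3).

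In CD8 TILs, *Nampt* measured 92.3, 77.0, 68.8 and 90.8 CPM in Sirt2-/- replicates 1 to 4 and 34.0, 65.6, 64.7 and 68.8 CPM in the WT replicates. The lowest Sirt2-/- library (68.836 CPM) was above the highest WT library (68.815 CPM) by a margin far below the spread of either group, and after scaling by TMM factors, which correct for composition, the groups overlapped. The log2 fold change was 0.52 (SE 0.21, unadjusted p = 0.0304, adjusted p = 0.986 from edgeR) and 0.34 (SE 0.13, adjusted p = 1.0) without the thin WT library. *Nampt* was the 1 enzyme of 9 whose Sirt2-/- libraries all lay above the WT libraries in CD4 TILs, where 1.28% of the genes tested were so placed, and again the 1 of 9 in CD8 TILs, where 1.48% were. The genotype effect on *Nampt* in CD8 minus that in CD4 TILs was -0.66 (SE 0.54, adjusted p = 1.0 from edgeR over all 16 libraries). None of the 10 enzymes was called for that difference, as were 0% of 17270 genes.

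**Figure D2:**
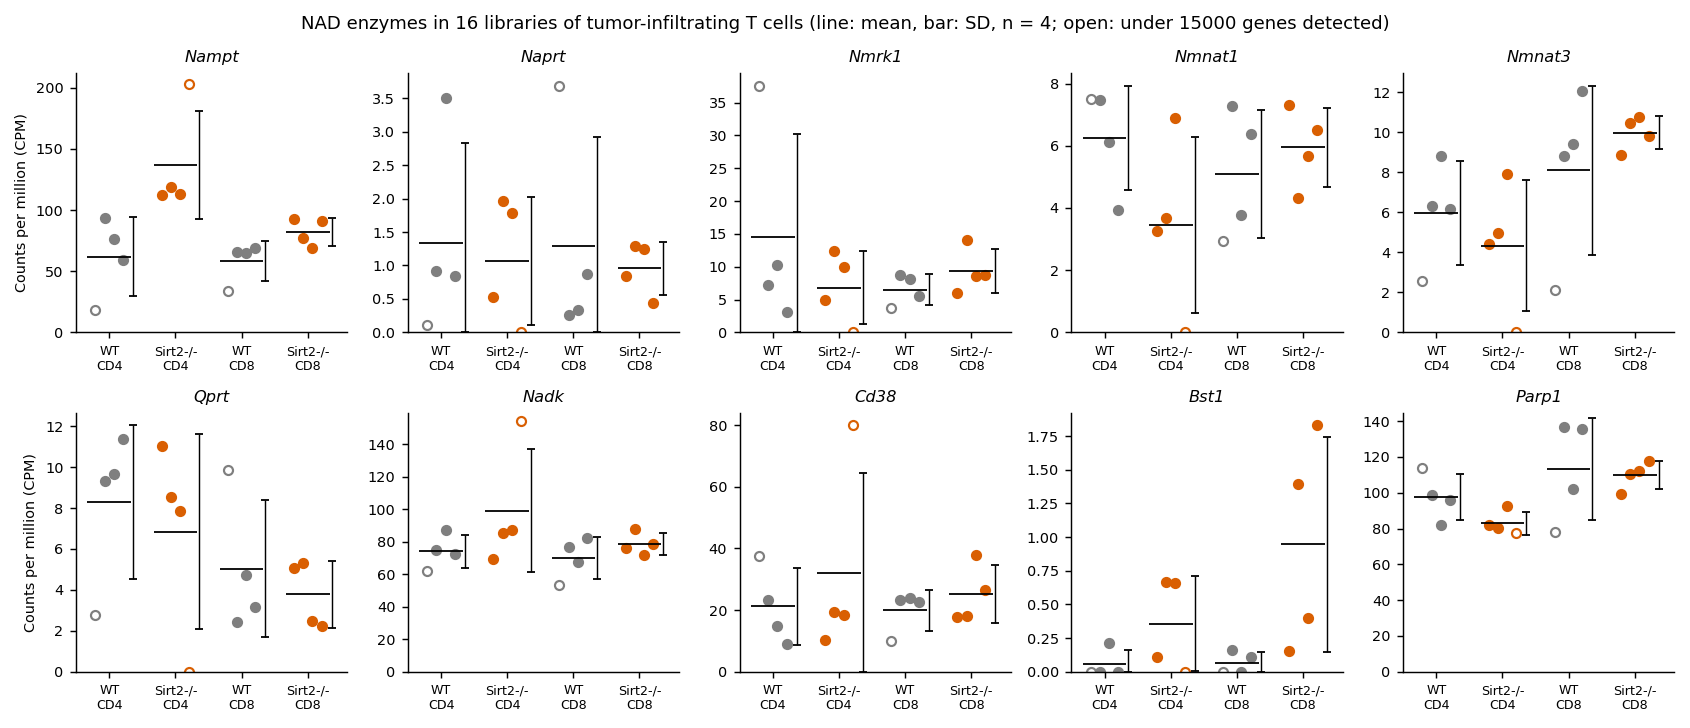
CPM of the 10 enzymes in every library, by group (grey WT, orange Sirt2-/-), with the mean as a line and the SD (n = 4) as a bar that is cut at 0. Open symbols are the 3 libraries with under 15000 genes detected, and *Nampt* in the 4 Sirt2-/- CD4 libraries (112 to 203 CPM) lies above the 4 WT CD4 libraries (18.6 to 93.5 CPM).

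The other salvage enzymes overlapped between genotypes in both cell types. *Nmrk1*, which phosphorylates nicotinamide riboside, measured 37.6, 7.17, 10.3 and 3.18 CPM in WT CD4 replicates 1 to 4 and 4.96, 12.4, 9.94 and 0 CPM in the Sirt2-/- CD4 replicates. The highest and the lowest value again belonged to thin libraries, and the log2 fold change of -1.03 (SE 1.54, adjusted p = 1.0 from edgeR) became 0.39 (SE 0.41) without them. *Naprt*, the nicotinic acid enzyme, had 0 to 80 counts in Sirt2-/- CD4, 3 to 146 in WT CD4, 22 to 62 in Sirt2-/- CD8 and 10 to 119 in WT CD8 libraries, and 277 bases (11.8%) of its exons are shared with *Eef1d* on the same strand, so its reads are uncertain.

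The NMNAT enzymes also overlapped between genotypes. *Nmnat1*, the nuclear form, measured 6.25 ± 1.68 CPM in WT CD4 and 3.45 ± 2.82 CPM in Sirt2-/- CD4 TILs, and 5.09 ± 2.07 against 5.95 ± 1.28 CPM in CD8 TILs (SD, n = 4 each). *Nmnat3*, a mitochondrial form, measured 5.97 ± 2.58 against 4.34 ± 3.27 CPM in CD4 and 8.12 ± 4.23 against 9.98 ± 0.8293 CPM in CD8 TILs, in the same order. Sirt2-/- CD4 replicate 4 had 0 counts for *Naprt*, *Nmrk1*, *Nmnat1*, *Nmnat3*, *Qprt* and *Bst1*, that is for 6 of the 10 enzymes.

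*Nadk*, the NAD kinase, overlapped between genotypes in both cell types. It measured 69.2, 85.6, 87.5 and 154 CPM in Sirt2-/- CD4 replicates 1 to 4 against 61.8 to 87.1 CPM in WT CD4, and 72.1 to 87.8 CPM against 53.2 to 82.5 CPM in CD8 TILs. Its log2 fold change of 0.47 (SE 0.30) in CD4 TILs came to -0.00092 (SE 0.13) without the thin libraries.

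Among the consumers, *Cd38* (ENSMUSG00000029084.5; chromosome 5, 43868553 to 43912375, plus strand), the main NAD glycohydrolase of immune cells, measured 10.3, 19.4, 18.4 and 80.1 CPM in Sirt2-/- CD4 replicates 1 to 4 and 37.6, 23.3, 14.7 and 9.03 CPM in the WT CD4 replicates. Each group's highest value was that of its thin library. The log2 fold change was 0.73 (SE 0.73, adjusted p = 1.0 from edgeR) and 0.00094 (SE 0.31) without the thin libraries. In CD8 TILs it measured 17.8, 18.1, 37.9 and 26.5 CPM in Sirt2-/- and 9.86, 23.2, 23.96 and 22.7 CPM in WT libraries, with a log2 fold change of 0.36 (SE 0.31). *Parp1* (ENSMUSG00000026496.11; chromosome 1, 180568924 to 180601254, plus strand) measured 82.9 ± 6.56 CPM in Sirt2-/- and 97.7 ± 12.95 CPM in WT CD4 TILs, and 110 ± 7.69 against 113 ± 28.4 CPM in CD8 TILs (SD, n = 4 each), with log2 fold changes of -0.21 (SE 0.18) and -0.02 (SE 0.17).

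*Bst1* (ENSMUSG00000029082.17; chromosome 5, 43818885 to 43843986, plus strand), the neighbor of *Cd38* and known from bone marrow stroma and myeloid cells, was near the detection limit. It had 0, 0, 9 and 0 counts in WT CD4, 5, 27, 28 and 0 in Sirt2-/- CD4, 0, 6, 0 and 4 in WT CD8 and 8, 55, 20 and 91 in Sirt2-/- CD8 replicates 1 to 4. These counts were too low for the test in CD4 and CD8 TILs between genotypes. The genotypes overlapped in both cell types in CPM, and after TMM scaling the lowest Sirt2-/- CD8 library (0.163 CPM) lay just above the highest WT CD8 library (0.159 CPM). Without the thin WT CD8 library *Bst1* was tested, at a log2 fold change of 3.34 (SE 1.10, adjusted p = 1.0 from edgeR). It passed the filter on low counts there through the Sirt2-/- libraries alone, where it was high. That route favors a higher Sirt2-/- value, so no conclusion is drawn from this fit. In bulk RNA, more cells of another type and more transcript per cell cannot be told apart.

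Markers of myeloid cells were set beside *Bst1* by library, and no correlation was computed. The summed level of 14 myeloid markers ranged from 1.61 to 17.3 CPM in WT CD4, 7.45 to 37.2 CPM in Sirt2-/- CD4, 2.29 to 9.19 CPM in WT CD8 and 9.74 to 40.4 CPM in Sirt2-/- CD8 libraries. The 4 libraries with the most *Bst1* (1.83, 1.40, 0.664 and 0.655 CPM) had sums of 40.4, 17.9, 20.4 and 37.2 CPM, and all 4 were Sirt2-/-. WT CD4 replicate 3 had a sum of 17.3 CPM with 0.216 CPM of *Bst1*. Sirt2-/- CD4 replicate 4 had a sum of 10.4 CPM with no *Bst1* count. All 14 myeloid markers had a higher mean in Sirt2-/- than in WT libraries in both cell types, as had all 6 stroma markers. In CD8 TILs, 5 of 5 T cell and 3 of 3 regulatory T cell markers were also higher in Sirt2-/- libraries. So were 4 of 4 erythroid, 6 of 7 melanoma and 4 of 5 B cell markers there. In CD4 TILs these were 1 of 5, 1 of 3, 1 of 4, 1 of 7 and 3 of 5, in that order. The CD4 T, CD8 T and NK cell lists had 2 of 3, 2 of 3 and 1 of 2 in CD8 TILs. In CD4 TILs they had 0 of 3, 3 of 3 and 1 of 2. The neutrophil genes *S100a8* and *S100a9* were at or near 0, with no count in WT libraries and at most 0.0603 and 0.511 CPM in Sirt2-/- libraries, and the part of myeloid or stromal cells in the *Bst1* counts was not tested. Of the *Bst1* exons, 98 bases (2.95%) overlap *Fbxl5* on the opposite strand.

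**Figure D3:**
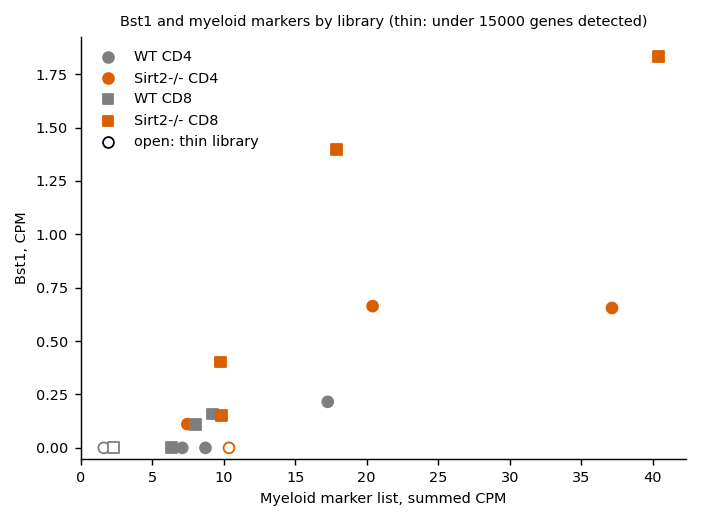
*Bst1* (CPM) against the summed CPM of 14 myeloid markers in the 16 libraries, with circles for CD4 and squares for CD8 TILs, grey for WT and orange for Sirt2-/-, and open symbols for libraries with under 15000 genes detected. The library with the most *Bst1*, Sirt2-/- CD8 replicate 4 (1.83 CPM), also has the highest myeloid sum (40.4 CPM).

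CD8 and CD4 TILs were compared within each genotype by the same test. None of 9 enzymes was called in WT TILs, where 11.9% of 14892 genes were, and none of 10 was called in Sirt2-/- TILs, where 2.24% of 15787 genes were. DESeq2 called 1 enzyme in Sirt2-/- TILs, *Parp1*, beside 8.69% of genes, and 0 in WT TILs, beside 17.7%. Under limma-voom with sample quality weights, 3 of 9 enzymes were called in WT TILs, beside 37% of genes, and 4 of 10 in Sirt2-/- TILs, beside 28.4%. Without the thin libraries, 1 of 9 enzymes was called in WT TILs, beside 28% of 15694 genes, and 4 of 10 were called in Sirt2-/- TILs, beside 25.4% of 16703 genes. The libraries of CD8 and CD4 TILs did not overlap for 0 of 9 enzymes in WT TILs, beside 22.3% of genes, and for 3 of 10 in Sirt2-/- TILs, beside 21.3%.

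*Qprt* (ENSMUSG00000030674.5; chromosome 7, 127107114 to 127122226, minus strand), the enzyme that joins the de novo pathway to NAD, was lower in CD8 TILs of both genotypes once the thin libraries were left out. It measured 2.79, 9.33, 9.68 and 11.4 CPM in WT CD4 replicates 1 to 4 and 9.86, 2.41, 4.72 and 3.17 CPM in WT CD8 replicates 1 to 4, so the thin replicate 1 of each cell type lay among the values of the other. With all libraries the log2 fold change of CD8 against CD4 was -0.84 (SE 0.61, adjusted p = 0.462 from edgeR), and without the thin ones it was -1.60 (SE 0.31, adjusted p = 0.00342 from edgeR).

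In Sirt2-/- TILs, *Qprt* measured 11.03, 8.53, 7.84 and 0 CPM in CD4 and 5.07, 5.30, 2.49 and 2.24 CPM in CD8 replicates 1 to 4. Its log2 fold change was -0.83 (SE 1.44, adjusted p = 0.998 from edgeR), and -1.25 (SE 0.36, adjusted p = 0.0250 from edgeR) without Sirt2-/- CD4 replicate 4. The 3 CD4 libraries left then lay above all 4 CD8 libraries.

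*Nmnat3* (ENSMUSG00000032456.13; chromosome 9, 98287435 to 98420438, plus strand) was on the other side. It measured 8.89, 10.5, 10.7 and 9.81 CPM in Sirt2-/- CD8 and 4.42, 4.99, 7.93 and 0 CPM in Sirt2-/- CD4 replicates 1 to 4, with no overlap. The log2 fold change was 1.24 (SE 1.38, adjusted p = 0.956 from edgeR) and 0.81 (SE 0.24, adjusted p = 0.0311 from edgeR) without the thin library. In WT TILs it was 0.36 (SE 0.60) and, without the thin libraries, 0.50 (SE 0.25, adjusted p = 0.168 from edgeR).

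*Parp1* had the smallest SE of the 10 enzymes in Sirt2-/- TILs with all libraries. It measured 99.3, 111, 112 and 118 CPM in Sirt2-/- CD8 and 82.0, 80.0, 92.3 and 77.4 CPM in Sirt2-/- CD4 replicates 1 to 4, with no overlap. The log2 fold change was 0.40 (SE 0.12, adjusted p = 0.157 from edgeR) with all libraries and 0.40 (SE 0.093, adjusted p = 0.00993 from edgeR) without the thin one. In WT TILs it was 0.15 (SE 0.20) and 0.41 (SE 0.16, adjusted p = 0.0910 from edgeR).

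*Nampt* was not called between CD8 and CD4 TILs of Sirt2-/- mice with all libraries, at a log2 fold change of -0.76 (SE 0.26, adjusted p = 0.240 from edgeR), and was called lower in CD8 TILs without the thin library at -0.45 (SE 0.13, adjusted p = 0.0219 from edgeR). The 4 CD8 libraries (68.8 to 92.3 CPM) lay below the 4 CD4 libraries (112 to 203 CPM). In WT TILs the log2 fold change was -0.17 (SE 0.42) and -0.21 (SE 0.14, adjusted p = 0.297 from edgeR) without the thin libraries. *Cd38* changed sign with the thin libraries, from -0.10 (SE 0.40) to 0.57 (SE 0.26) in WT and from -0.42 (SE 0.69) to 0.67 (SE 0.30) in Sirt2-/- TILs, and was not called in any of the 4 fits.

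**Figure D4:**
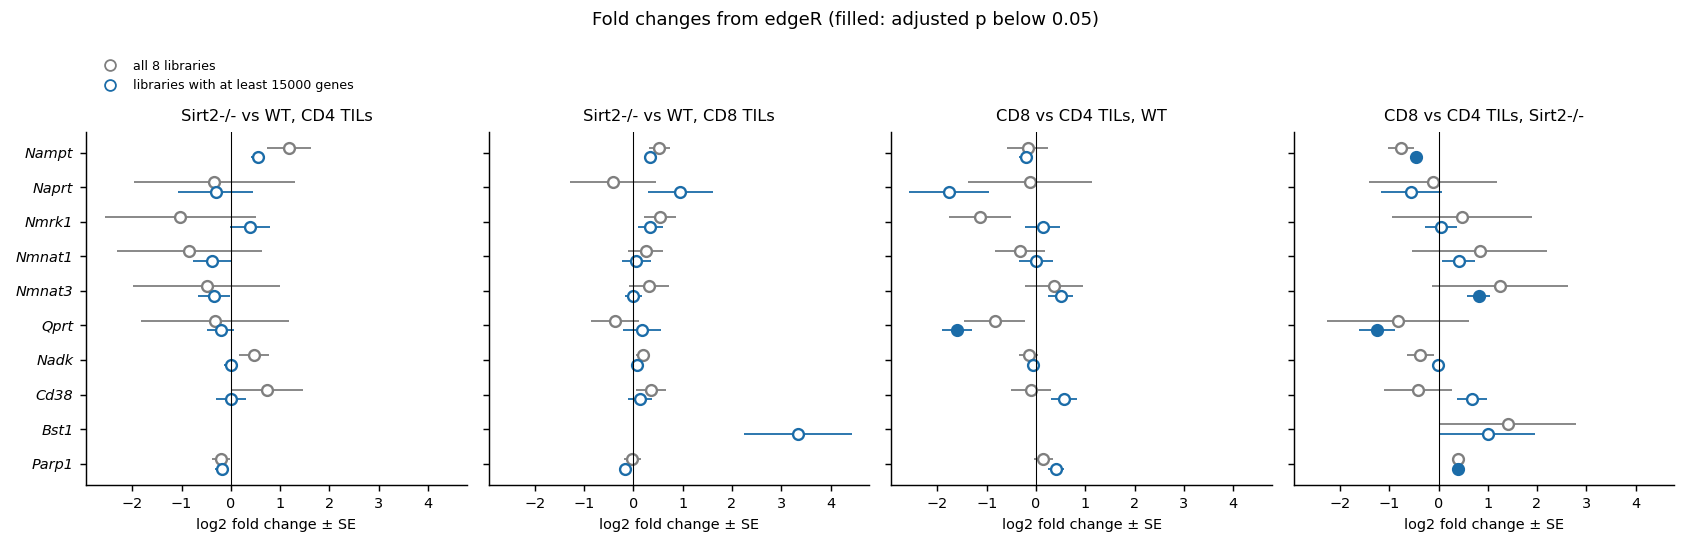
Log2 fold change with its SE for each enzyme in 4 comparisons, from edgeR with all 8 libraries (grey) and with the libraries that detected at least 15000 genes (blue), with filled symbols at an adjusted p below 0.05. Filled symbols appear only for CD8 against CD4 TILs without the thin libraries, for *Qprt* in WT and for *Nampt*, *Nmnat3*, *Qprt* and *Parp1* in Sirt2-/- TILs.

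Of 49 other genes of NAD metabolism, 48 had a single row and were read. None of the 40 tested in CD4 TILs and none of the 36 tested in CD8 TILs was called between genotypes, and none of 40 for the difference between cell types. At an unadjusted p under 0.05, 1 was higher in Sirt2-/- CD4 and 4 in Sirt2-/- CD8 TILs. The share of all genes tested at that level was not counted, so these numbers have no background beside them. DESeq2 called none of these other genes in either cell type. Between CD8 and CD4 TILs, 1 of 37 was called higher and 2 lower in WT, beside 11.9% of all genes tested, and 0 of 38 higher and 1 lower in Sirt2-/- TILs, beside 2.24%. Without the thin libraries these counts were 2 and 8 of 38 in WT, beside 28% of all genes, and 1 and 6 of 40 in Sirt2-/- TILs, beside 25.4%.

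Upstream of *Qprt* in the de novo pathway, the dioxygenase *Haao* and the hydrolase *Kynu* went opposite ways. *Haao* measured 13.5, 7.92, 11.1 and 9.06 CPM in WT CD8 and 0, 0.360, 0.671 and 0.239 CPM in WT CD4 replicates 1 to 4. It rose by 4.92 on the log2 scale in CD8 TILs (SE 0.95, adjusted p = 0.00643 from edgeR). In Sirt2-/- TILs it measured 7.84 to 10.3 CPM in CD8 and 0 to 1.082 CPM in CD4 libraries, again with no overlap. The log2 fold change there was 4.44 (SE 1.73, adjusted p = 0.330 from edgeR), with adjusted p = 0.0139 from edgeR without the thin library. In all of these fits *Haao* passed the filter on low counts through the CD8 libraries, where it was high. That route favors a higher CD8 value.

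*Kynu* had 458, 112, 110 and 32 counts in WT CD4 and 0, 2, 0 and 4 in WT CD8 replicates 1 to 4, and was lower in WT CD8 TILs (adjusted p = 0.0124 from edgeR). In Sirt2-/- TILs it had 21, 99, 123 and 0 counts in CD4 and 0, 5, 0 and 0 in CD8 replicates 1 to 4, too few for the test with all 8 libraries. Without the thin library it was tested and called lower in CD8 TILs (adjusted p = 0.00712 from edgeR). It passed the filter on low counts in this fit, and in the WT fit, through the CD4 libraries alone. In both, that route favors a lower CD8 value. *Nt5e*, which encodes CD73, an ectonucleotidase that can act on NMN, was lower in CD8 TILs of both genotypes. It measured 64.6 to 116 CPM in the 8 CD8 libraries and 168 to 383 CPM in the 8 CD4 libraries, with log2 fold changes of -1.72 (SE 0.20, adjusted p = 0.000382 from edgeR) in WT and -1.61 (SE 0.20, adjusted p = 0.00688 from edgeR) in Sirt2-/- TILs.

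Of the 14 other PARP genes tested, 3 had every Sirt2-/- CD4 library above every WT CD4 library, as had 1.28% of all genes tested, and they are named here after their values were seen. They were *Parp9*, *Parp12* and *Parp14*. *Parp9* measured 224 to 316 CPM in Sirt2-/- CD4 against 55.4 to 202 CPM in WT CD4 TILs, *Parp12* 60.3 to 76.4 against 14.2 to 47.3 CPM, and *Parp14* 558 to 670 against 202 to 508 CPM. After TMM scaling the *Parp14* groups overlapped. None was called, with log2 fold changes of 0.82 (SE 0.38), 0.91 (SE 0.39) and 0.60 (SE 0.29) in CD4 and 0.67 (SE 0.26), 0.84 (SE 0.24) and 0.66 (SE 0.21) in CD8 TILs, where the groups overlapped. The lowest WT CD4 value of each was that of the thin WT library, and without the thin libraries the log2 fold changes in CD4 TILs were 0.42 (SE 0.15), 0.62 (SE 0.15) and 0.34 (SE 0.15), and none was called. The lowest WT CD8 value of each was also that of the thin WT library. Without it the log2 fold changes in CD8 TILs were 0.45 (SE 0.17), 0.68 (SE 0.23) and 0.51 (SE 0.18), and none was called. *Sirt4* and *Art2b* were the 2 other NAD genes with every Sirt2-/- CD8 library above every WT CD8 library, as had 1.48% of all genes tested, and they too are named after their values were seen. They measured 2.84 to 5.58 against 0.930 to 2.54 CPM and 9.70 to 16.2 against 0 to 9.33 CPM, with the lowest WT value in the thin library. Neither was called, with log2 fold changes of 0.88 (SE 0.44) and 1.16 (SE 0.84), and of 0.64 (SE 0.32) and 0.75 (SE 0.23) without that library.

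**Figure D5:**
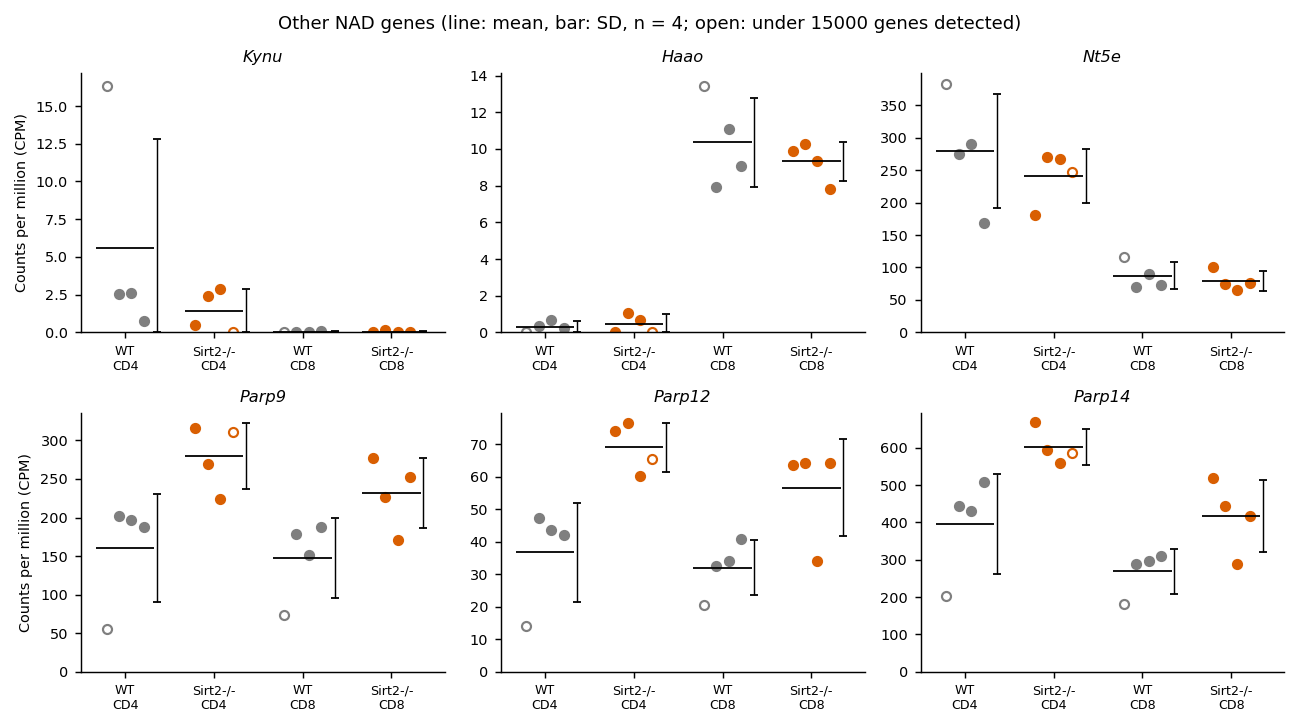
CPM of *Kynu*, *Haao*, *Nt5e*, *Parp9*, *Parp12* and *Parp14* in every library by group, drawn as for the 10 enzymes, with means, SD bars cut at 0 (n = 4) and open symbols for libraries with under 15000 genes detected. *Haao* is at 7.84 to 13.5 CPM in the CD8 libraries and at most 1.082 CPM in the CD4 libraries.

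Over the 13 libraries with at least 15000 genes detected, the 5 of 17269 genes whose log2 CPM followed *Nampt* most closely were *Usp25* (Pearson r = 0.947), *Ly6a* (0.939), *Tspan32os* (0.934), *Ifi209* (0.933) and *Gbp6* (0.926). For *Cd38*, those of the 5 reported here were *Brip1os* (0.946), *Poc1a* (0.946), *Slc10a7* (0.941) and *Nmral1* (0.936). With TMM scaling, 4 of the 5 were shared for each gene. The libraries share cell type, genotype and sequencing depth within groups, so these are descriptions of likeness. Among the enzymes themselves, on the log2 of CPM plus 0.5, *Qprt* and *Parp1* ran most opposite (r = -0.848), and *Nmnat3* and *Parp1* ran most together (r = 0.726).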

How the data were processed

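Stranded total RNA libraries of CD4 and CD8 TILs were made from 1 ng of RNA with a pico-input, rRNA-depleting kit. The values are the raw read counts per gene as the authors deposited them, in 1 table. The submitters' processing notes name STAR, HTSeq and mm10, with no versions. All 55450 gene identifiers matched GENCODE M21 (GRCm38), which gave coordinates and exon lengths.

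All tests ran on these counts with edgeR 4.0.16 under R 4.3.3 (filterByExpr, TMM, robust quasi-likelihood test, two-sided, Benjamini–Hochberg over all genes tested, threshold 0.05). Only the 2 groups compared entered a fit, except for the difference between cell types, which used all 16 libraries. The functions were tested on simulated data with the same spread for all genes and large changes in genes with many counts. The simulation held no thin libraries, so it does not cover small changes, low counts or the thin libraries here. CPM used total counts, and RPKM also the exon length. Log2 CPM for likeness used a prior count of 2, and correlations among the enzymes used the log2 of CPM plus 0.5. Depth was 28000949 to 62407851 counts per library, and a count of 0 allows up to 3 counts, for counting error only.

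Alternatives were DESeq2 1.42.0, limma-voom (limma 3.58.1) with sample quality weights, DESeq2 size factors, no filter, a block for the replicate number, a single model of all 16 libraries, leaving out the 3 libraries with under 15000 genes detected, and leaving out each library. The TMM scaling of overlaps and of likeness, and a minimum mean of 100 counts for likeness, were chosen after seeing the data. The likeness ranking is on log2 CPM without TMM factors, as designed. The members and gene lists were chosen with earlier results of these data known. Named were all 10 members and *Sirt2*, other NAD genes called in a comparison or without overlap in both cell types, and the 5 genes most alike to *Nampt* and to *Cd38*. *Parp9*, *Parp12*, *Parp14*, *Sirt4* and *Art2b*, without overlap in 1 cell type only, fall outside this rule and were added after their values were seen. *Nnt*, whose name has 2 rows, was left out, and 1 of the genes most alike to *Cd38* is not reported here.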

Additional observations from a re-analysis of the deposited data

Results flagged for a closer look

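In 5 of 40 tests of a member within a group of 4 libraries, the gap between 1 library and the nearest of the others took up more of the range than Dixon's critical value for 4 samples allows. Chance alone would give about 2 for normal values and independent tests. The flags of *Nampt* and *Cd38* fell in the same libraries, so the tests were not independent. *Nampt* stood apart at 203 CPM in replicate 4 of the Sirt2-/- CD4 TILs, and at 34.0 CPM in replicate 1 of the WT CD8 TILs. *Cd38* stood apart in the same libraries, at 80.1 CPM and 9.86 CPM. Both are libraries with under 15000 genes detected. *Bst1* stood apart in WT CD4 replicate 3 (0.216 CPM, 9 counts), the only library of its group with a count. With the rest of the group at 0, this flag was fixed in advance.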

How the results depend on the processing

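No enzyme was called between genotypes, or for the difference between cell types, under any alternative run. Counts were low for *Bst1* and *Naprt*, with at most 91 and 146 counts in a library. For CD8 against CD4 TILs the count of enzymes called rose from 0 to 3 in WT and 4 in Sirt2-/- TILs under limma-voom (beside 37% and 28.4% of all genes), to 1 and 4 without the thin libraries (28% and 25.4%), and to 1 in Sirt2-/- TILs under DESeq2 (8.69%). Leaving out 1 library gave 0 to 0 enzymes in WT and 0 to 4 in Sirt2-/- TILs, with 4 only without Sirt2-/- CD4 replicate 4. The cause was not tested for these or for the changes below.

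Over all genes, the count called between genotypes in CD4 TILs was 7 under DESeq2, 4 under limma-voom and 6 without the thin libraries, and 0 to 0 when 1 library was left out. In CD8 TILs it was 28 under DESeq2, 5 under limma-voom, 5 with no filter and 7 without the thin library, and 0 to 7 when 1 library was left out (0 without Sirt2-/- replicate 1 or 4, 7 without WT replicate 1). Between cell types it was 5504 in WT and 4481 in Sirt2-/- TILs under limma-voom, 811 and 781 with all 16 libraries in 1 model, 4394 and 4250 without the thin libraries, and 1339 in Sirt2-/- TILs under DESeq2. Leaving out 1 library gave 1022 to 2767 (highest without WT CD4 replicate 1) and 111 to 4250 (highest without Sirt2-/- CD4 replicate 4). DESeq2 gave 2 genes for the difference between cell types. *Sirt2* in CD8 TILs lost its call with all 16 libraries in 1 model (-2.21, adjusted p = 1.0) and without Sirt2-/- replicate 1 or 4 (adjusted p = 0.0570 and 0.0620), and in CD4 TILs it was called under limma-voom (-1.99) and without the thin libraries (-1.95).

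Libraries with the same replicate number did not deviate together in every pair. In WT, the correlations of their deviations between CD8 and CD4 TILs were 0.0761, 0.143, 0.1 and 0.121. In Sirt2-/- TILs they were 0.146, 0.0439, 0.0245 and 0.0141, so all were positive between cell types. Between genotypes they ran from -0.14 to 0.087. Pairs of unlike number were not compared, so these values cannot decide whether libraries share an animal. The labels give no pairing, and the main fits did not take the number as one. With it as a replicate block, 0 genes were called in CD4 and 4 in CD8 TILs between genotypes, 1619 and 108 between cell types in WT and Sirt2-/- TILs, 0 for the difference between cell types, and no enzyme in any.

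Of 319 fold changes of the enzymes under the other alternatives, 35 had another sign, and of 456 with 1 library left out, 40 had. None of these passed the threshold. Between genotypes in CD4 TILs, *Nmrk1* turned to 0.32 under limma-voom and 0.39 without the thin libraries, and *Nadk* to -0.00092 without them. In CD8 TILs, *Naprt* turned to 0.89 under limma-voom, 0.28 with the block and 0.95 without the thin library, *Qprt* to 0.17 under limma-voom and 0.17 without it, *Nmnat1* to -0.0017 under limma-voom, *Nmnat3* to -0.0012 without the thin library and *Parp1* to 0.018 with the block. Between cell types in WT, *Nampt* turned to 0.0084 with the block, *Nmrk1* to 0.14 without the thin libraries and *Cd38* to 0.41 under limma-voom and 0.57 without them. In Sirt2-/- TILs, *Naprt* turned to 0.83 with the block, *Nmrk1* to -0.15 under limma-voom and *Cd38* to 0.53 under limma-voom, 0.064 with the block and 0.67 without the thin library. For the difference between cell types, the values under limma-voom were 0.98 for *Naprt*, -0.035 for *Nmrk1*, 0.30 for *Qprt*, 0.054 for *Cd38*, -0.63 for *Bst1* and -0.11 for *Parp1*. With the block they were 1.39 for *Naprt*, 0.79 for *Qprt*, 0.0066 for *Cd38* and -0.62 for *Bst1*, and without the thin libraries 1.25 for *Naprt*, -0.053 for *Nmrk1*, 0.38 for *Qprt*, 0.071 for *Nadk* and 0.13 for *Cd38*.

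With 1 library left out, the log2 fold change between genotypes in CD4 TILs ran from -0.80 to 0.68 for *Naprt*, -0.67 to 0.093 for *Qprt* and -0.37 to 1.11 for *Cd38*. In CD8 TILs it ran from -0.73 to 0.95 for *Naprt*, -0.0012 to 0.60 for *Nmnat3*, -0.59 to 0.17 for *Qprt* and -0.17 to 0.10 for *Parp1*. Between cell types in WT it ran from -0.40 to 0.079 for *Nampt*, -1.42 to 0.89 for *Naprt*, -0.25 to 0.024 for *Nadk* and -0.28 to 0.34 for *Cd38*, and in Sirt2-/- TILs from -0.55 to 0.35 for *Naprt* and -0.75 to 0.67 for *Cd38*. For the difference between cell types it ran from -1.07 to 1.28 for *Naprt*, -0.44 to 0.50 for *Qprt*, -0.44 to 0.070 for *Nadk*, -0.76 to 0.72 for *Cd38* and -3.15 to 1.86 for *Bst1*.

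After TMM scaling, the genotypes overlapped for *Nampt* in CD8 TILs and no longer did for *Bst1*, which was too low to be tested there. With a minimum mean of 100 counts, 4 of the 5 genes most alike to *Nampt* and all 5 for *Cd38* were shared. With TMM scaling 4 of 5 were shared for each.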
